A study of Mus musculus with 9 samples.

Results

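BV2 cells, an immortalized line made from mouse microglia with a retrovirus that carries oncogenes, were left untreated (0 h) or given bacterial lipopolysaccharide (LPS) at 200 ng/ml for 1 h or 12 h. Each group had 3 RNA libraries, 9 in all. All groups were the same line, with no genetic change between them. The later time points had no untreated cells of their own, so an LPS response cannot be told apart from hours in culture. The authors deposited FPKM, in which fragment numbers are divided by transcript length and by the size of the library, for 6462 genes that they had selected for a difference among these samples.

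The phagosome genes are those whose deposited pathway terms hold Phagosome and hold neither Lysosome nor Regulation of actin cytoskeleton, with a mean of at least 1 FPKM over the 9 libraries. Of 86 genes with the term, 11 also had Lysosome and 10 also had the actin term. Cd14, Tlr2, Tap1 and H2-T23 were left out by name, which took out 3 more, and 5 genes lay below the level. That left 57 of the 6462 listed genes, and of the 5643 listed genes that were tested. The lowest member was Tuba8 at 1.68 FPKM, and the highest gene below the level was Mrc1 at 0.96 FPKM. Msr1 had a mean below 1 FPKM in untreated cells and at 1 h, and so was a member only through its level at 12 h. Its 12 h difference is therefore given without a test, and without it 44 of 56 members were higher at 12 h, 7 of them by a log2 difference of at least 1.

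A phagosome forms when a receptor binds a particle and the membrane closes around it. Fc receptors bind antibody on the particle, complement receptors bind fragments of C3, and scavenger receptors and lectins bind the surface itself. The new vesicle then fuses with endosomes under the control of Rab GTPases and SNARE proteins, moves along microtubules with dynein, is acidified by the V-ATPase proton pump and receives superoxide from the NADPH oxidase. Peptides from its contents can be loaded onto MHC molecules. In the brain, microglia are the main resident cells that take up particles in this way.

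Libraries of 1 group had Pearson correlations of log2(FPKM + 1) from 0.998 to 0.999 across genes, against 0.924 to 0.970 between groups. The table gives no read counts, so the depth is unknown. Of 12 microglia and macrophage markers 8 were listed. Their summed level was 1170 to 1260 FPKM in untreated libraries, 1133 to 1167 at 1 h and 1038 to 1082 at 12 h. They did not move together. Itgam averaged 27.9 FPKM in untreated cells and 70.3 at 12 h, Spi1 62.7 and 89.3, and Cd68 390.6 and 390.9. Tyrobp, Trem2, Csf1r and Cx3cr1 had lower means at 12 h. So did P2ry12, a defining marker of microglia in tissue, with 1.24 FPKM in untreated cells, 0.979 at 1 h and 0.22 at 12 h. Tmem119 was not listed. The listed genes had been selected for a difference, so a marker missing from the list may still be expressed. None of the markers of astrocytes, neurons, fibroblasts, endothelium or lymphocytes was listed, and of the oligodendrocyte markers Olig2 was listed, at 0 to 0.0841 FPKM. These are whole-culture RNA levels, in which fewer expressing cells and less RNA per cell cannot be told apart. Nothing in the labels ties the 3 libraries of a group to separate cultures; the p-values then cover the spread between these libraries, which may be technical.

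At 12 h with LPS, 45 of the 57 phagosome genes had risen against untreated cells and 8 had fallen, at an adjusted p under 0.05 (limma, as for every adjusted p below). Higher members made up 78.9%, where 41.1% of all tested genes were higher, and lower members 14.0%, where 40.6% were lower. The median log2 difference was 0.26 over the members and 0.03 over all tested genes. At 1 h, 12 members were higher and 21 lower, shares of 21.1% and 36.8% that lie near the 24.1% and 34.9% of all tested genes, with medians of -0.03 over the members and -0.03 over all tested genes. Between 12 h and 1 h, 44 members, Msr1 among them, were higher and 8 lower at 12 h, where 41.9% and 43.6% of all tested genes were. Quantile normalization gave 33 members higher and 11 lower at 12 h, and 9 higher and 25 lower at 1 h. Of all 5643 tested genes it gave 2120 higher and 2465 lower at 12 h, and 1270 and 2008 at 1 h.

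Most of the shifts were small. In the comparison of 12 h with untreated cells, 8 members were higher and 1 lower by a log2 difference of at least 1, 14.0% and 1.75% of the members, against 4.54% and 2.75% of all tested genes. Between 12 h and 1 h, 6 members were higher and 1 lower by that size, where 4.04% and 2.16% of all tested genes were. Msr1, a member only through its 12 h level, is among the 6. No member passed that size at 1 h, where 2.16% of all tested genes were higher and 0.585% lower by as much. The members' FPKM summed to 3978 to 4138 in untreated libraries, 4093 to 4148 at 1 h and 4824 to 4934 at 12 h. Summed over all listed genes, FPKM was also higher at 12 h, with sums between 195872 and 198075 in untreated libraries, between 203515 and 205413 at 1 h and between 223720 and 228207 at 12 h. The members' share of that sum was 2.03% to 2.09%, 2.01% to 2.03% and 2.16% to 2.18% in the same order. All log2 differences are of FPKM + 1, which shrinks those of genes near 0.

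**Figure D1:**
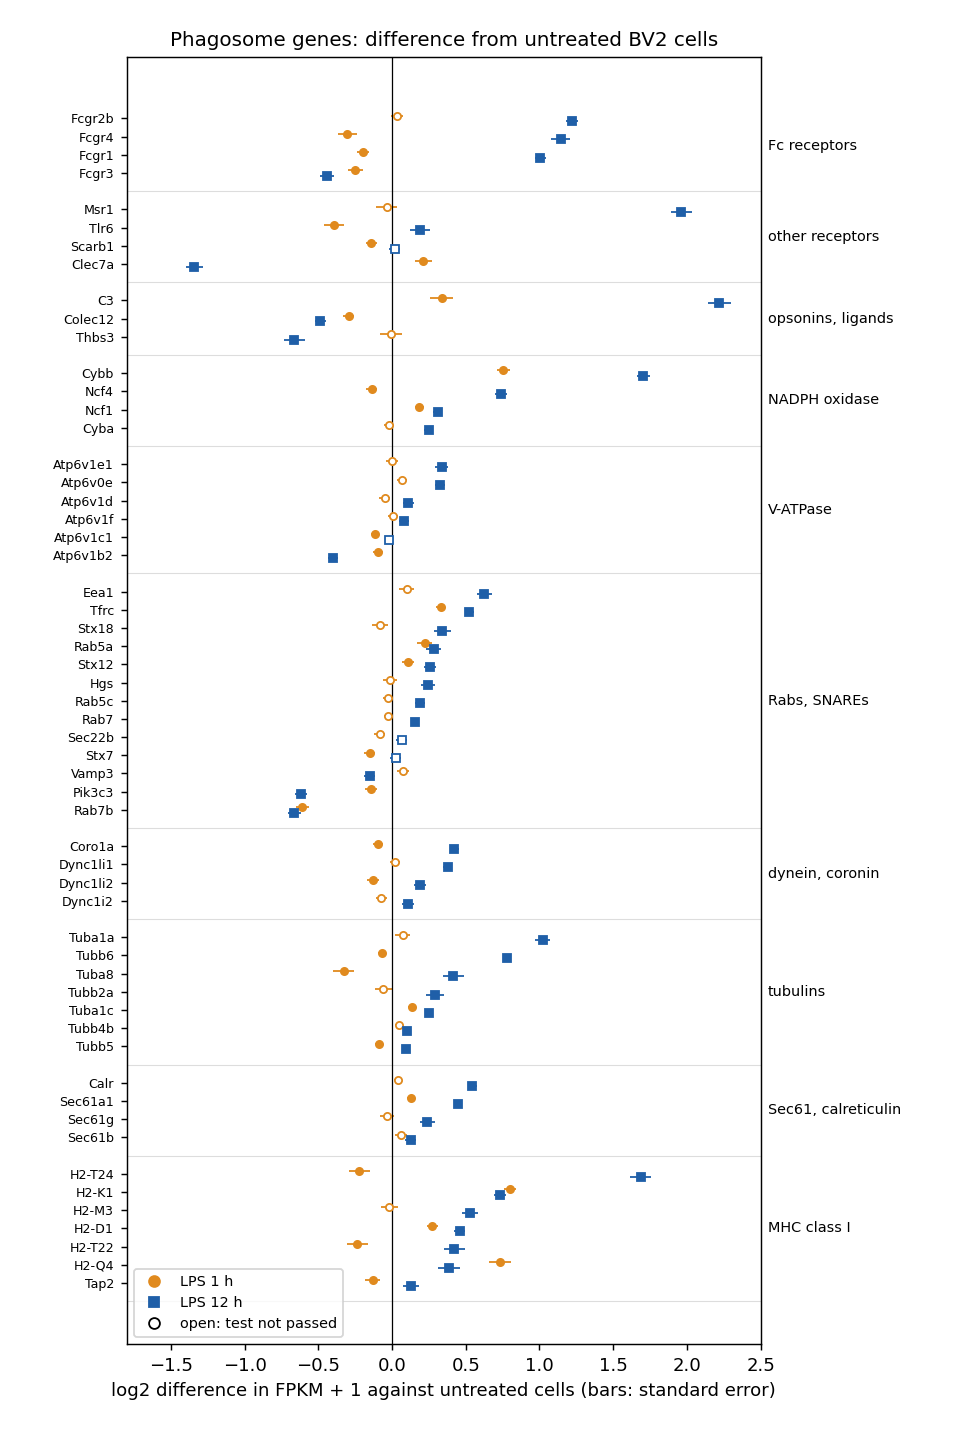
Log2 difference in FPKM + 1 of 56 of the 57 phagosome genes against untreated cells, at 1 h (circles) and 12 h (squares), grouped by role, with standard errors from limma; open symbols did not pass the test. Of the 12 h squares drawn 44 passed to the right of 0 and 8 to the left, while the 1 h circles lie on both sides. Msr1, a member only through its 12 h level, is drawn and is among these 44.

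The members followed a few patterns in time. The commonest was no call at 1 h and a higher level at 12 h, seen in 21 members, or 36.8%, and in 18.4% of all tested genes. Msr1, a member only through its 12 h level, is among the 21. A further 13 members (22.8%) were lower at 1 h and higher at 12 h, as were 8.7% of all tested genes. Another 11 (19.3%) were higher at both times and 5 (8.77%) lower at both, against 13.9% and 20.3% of all tested genes. Clec7a alone (1.75%) was higher at 1 h and lower at 12 h, against 4.15% of all tested genes. Of the other members, 3 (5.26%) were lower at 1 h only, against 5.94% of all tested genes. Vamp3 and Thbs3 (3.51%) were lower at 12 h only, against 16.2%, and Sec22b (1.75%) passed at neither time, against 6.33%. Both calls use the same untreated libraries.

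Among the receptors that open phagocytosis, 3 of 4 Fc receptor genes rose at 12 h and 1 fell, where 41.1% and 40.6% of all tested genes did. Fcgr2b, the only inhibitory IgG receptor of the mouse, stood at 15.5, 15.02 and 16.3 FPKM in untreated libraries, 16.0, 15.8 and 16.0 at 1 h, and 37.1, 36.5 and 39.7 at 12 h. The 12 h libraries lay above all others, while those at 1 h fell within the untreated range. Its log2 difference at 12 h was 1.22 ± 0.04 (standard error; adjusted p = 1.94e-12). Fcgr1, the high-affinity activating receptor, stood at 16.8, 17.7 and 17.3 FPKM in untreated libraries, 15.8, 14.5 and 14.6 at 1 h, and 36.5, 34.8 and 35.9 at 12 h. All its 1 h libraries lay below the untreated ones and all its 12 h libraries above, with log2 differences of -0.20 (adjusted p = 0.000809) and 1.01 (adjusted p = 1.33e-11).

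Fcgr4, an activating receptor of intermediate affinity, moved in the same way at a lower level. It had 4.02, 3.59 and 4.40 FPKM in untreated libraries, 3.22, 2.98 and 2.94 at 1 h, and 9.74, 10.8 and 9.59 at 12 h. The groups did not overlap, and the log2 differences were -0.31 ± 0.06 at 1 h and 1.14 ± 0.06 at 12 h (adjusted p = 0.00103 and adjusted p = 5.79e-10). Fcgr3, the activating low-affinity receptor and the most abundant of the 4, fell at both times. It had 87.9, 79.2 and 79.0 FPKM in untreated libraries, 70.1, 68.6 and 67.7 at 1 h, and 57.6, 57.7 and 65.1 at 12 h, with log2 differences of -0.25 and -0.44 (adjusted p = 0.000589 and adjusted p = 8.94e-07). Each later group thus lay wholly below the one before it. Fc receptor genes resemble each other in sequence, and how the authors' counting divided shared reads is not given in the sources used here.

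The ratio of the 3 activating receptors to Fcgr2b, in summed FPKM, was 7.04, 6.69 and 6.19 in untreated libraries, 5.56, 5.43 and 5.32 at 1 h, and 2.80, 2.83 and 2.78 at 12 h. It was lower in every 12 h library than in any other (two-sided exact permutation test, p = 0.1 for each pair of groups, the smallest that 3 against 3 libraries allow). Fcgr3 made up 68.97 ± 1.66% of the summed Fc receptor FPKM in untreated cells (SD, n = 3, as in later sentences with ±), 66.96 ± 0.341% at 1 h and 41.83 ± 1.28% at 12 h. The sum itself was 118.9 ± 4.67, 102.8 ± 2.07 and 143.6 ± 5.79 FPKM in the same order.

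**Figure D2:**
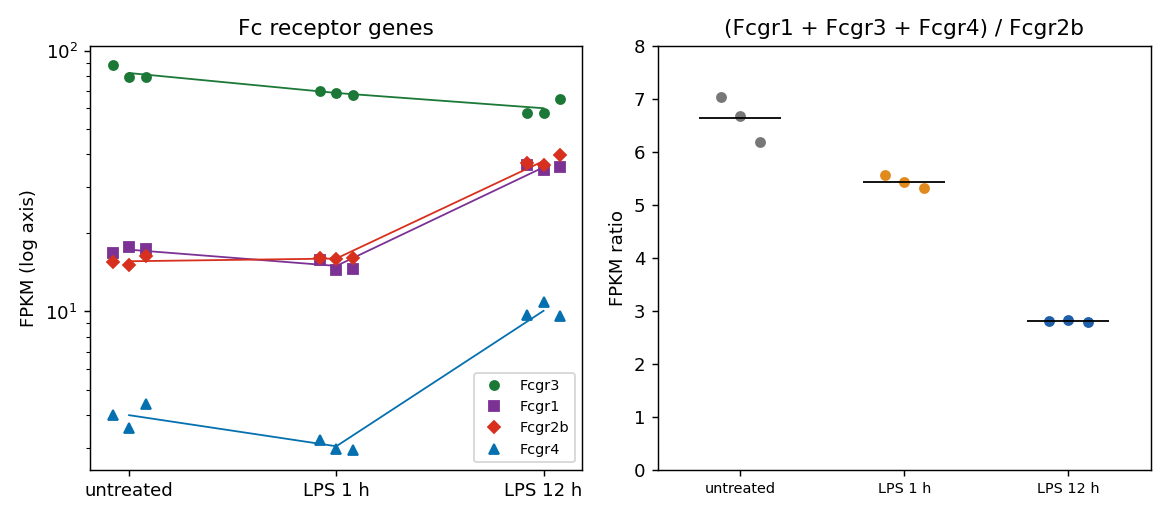
Left, FPKM on a log axis of the 4 Fc receptor genes in each library, with lines through the group means. Right, the FPKM ratio of activating (Fcgr1, Fcgr3, Fcgr4) to inhibitory (Fcgr2b) receptors, with bars at the means, which fell to 2.81 at 12 h, against 6.64 in untreated cells.

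Fcgr3, which fell, had no promoter in the RefSeq table. Because Fcgr1, Fcgr2b and Fcgr4 share their rise at 12 h, their promoters from that table are shown. Each runs from 250 bases before to 50 bases after the gene start, 5′ to 3′ on the gene's strand (GRCm38.p6: Fcgr1 chr3:96293920-96294219, minus strand; Fcgr2b chr1:170976022-170976321, minus; Fcgr4 chr1:171018676-171018975, plus). Capitals mark matches, on either strand, to a interferon response element motif and to GAGGAAGT, a site of the myeloid factor PU.1.
Fcgr1: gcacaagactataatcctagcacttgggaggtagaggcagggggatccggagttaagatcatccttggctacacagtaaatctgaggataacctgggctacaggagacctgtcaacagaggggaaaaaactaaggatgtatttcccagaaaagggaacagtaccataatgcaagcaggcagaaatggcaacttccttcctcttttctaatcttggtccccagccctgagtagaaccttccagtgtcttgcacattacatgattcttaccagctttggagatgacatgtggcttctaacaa
Fcgr2b: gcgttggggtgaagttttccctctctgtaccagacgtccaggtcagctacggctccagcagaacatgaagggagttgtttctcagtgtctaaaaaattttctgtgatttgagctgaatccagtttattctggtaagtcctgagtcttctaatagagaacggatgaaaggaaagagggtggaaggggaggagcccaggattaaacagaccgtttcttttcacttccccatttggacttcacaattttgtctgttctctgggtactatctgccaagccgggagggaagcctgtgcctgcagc
Fcgr4: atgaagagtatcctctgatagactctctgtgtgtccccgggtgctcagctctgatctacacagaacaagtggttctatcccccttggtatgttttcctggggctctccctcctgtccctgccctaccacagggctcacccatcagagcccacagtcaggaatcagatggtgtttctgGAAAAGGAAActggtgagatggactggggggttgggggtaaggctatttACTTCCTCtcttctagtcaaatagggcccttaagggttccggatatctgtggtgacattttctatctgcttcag
The Fcgr4 window held 1 match to each, the interferon motif at position -73 and GAGGAAGT at -24 from the gene start, and the Fcgr1 and Fcgr2b windows held neither. Over the 32851 promoters of the table, 3.44% held the interferon motif and 3.2% held GAGGAAGT. A match is a string of letters and not a shown binding site.

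The other receptors went separate ways. Msr1, the class A scavenger receptor, stood at 0.71, 0.837 and 0.688 FPKM in untreated libraries, 0.606, 0.78 and 0.725 at 1 h, and 5.73, 5.29 and 6.42 at 12 h. All its libraries lay below 1 FPKM in the first 2 groups, and its 12 h level was 1.96 higher on the log2 scale. Clec7a, which encodes Dectin-1, the receptor for fungal beta-glucan, stood at 14.9, 13.7 and 13.2 FPKM in untreated libraries, 16.7, 15.8 and 16.4 at 1 h, and 4.91, 4.43 and 5.37 at 12 h. Every 1 h library lay above the untreated ones (0.21, adjusted p = 0.00637) and every 12 h library far below (-1.34 ± 0.06, adjusted p = 3.53e-11).

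Tlr6, which pairs with TLR2 on lipopeptides, fell to 2.22 ± 0.0369 FPKM at 1 h, against 3.23 ± 0.167 in untreated cells (-0.39, adjusted p = 0.000203), and stood at 3.83 ± 0.5 at 12 h (0.19, adjusted p = 0.0188). Leaving out untreated library 1 ended the 12 h call for Tlr6 (adjusted p = 0.0703), as did leaving out 12 h library 2 (adjusted p = 0.118). Scarb1, which binds lipoproteins and apoptotic cells, was lower at 1 h (-0.14, adjusted p = 0.00469), and its 12 h value of 0.02 missed the threshold (adjusted p = 0.645). Colec12, a membrane collectin that acts as a scavenger receptor, fell at both times, to 40.5 ± 0.89 FPKM at 1 h and 35.3 ± 1.72 at 12 h, against 49.8 ± 0.563 in untreated cells. The log2 differences of Colec12 were -0.29 and -0.49 (adjusted p = 9.62e-06 and adjusted p = 1.34e-08), and the 3 groups did not overlap.

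C3, the complement protein whose fragments coat particles for uptake, had 1.98, 1.71 and 1.4 FPKM in untreated libraries, 2.65, 2.04 and 2.52 at 1 h, and 11.4, 11.6 and 11.5 at 12 h. The groups did not overlap, and the log2 differences were 0.34 ± 0.08 at 1 h and 2.22 ± 0.08 at 12 h (adjusted p = 0.00216 and adjusted p = 3.88e-12). Thbs3, a matrix protein of the thrombospondin family, fell to 2.28, 2.21 and 2.4 FPKM at 12 h, against 4.25, 4.79 and 3.67 in untreated libraries (-0.66, adjusted p = 9.65e-07). At 1 h Thbs3 differed by -0.01 (adjusted p = 0.937), with overlapping groups.

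**Figure D3:**
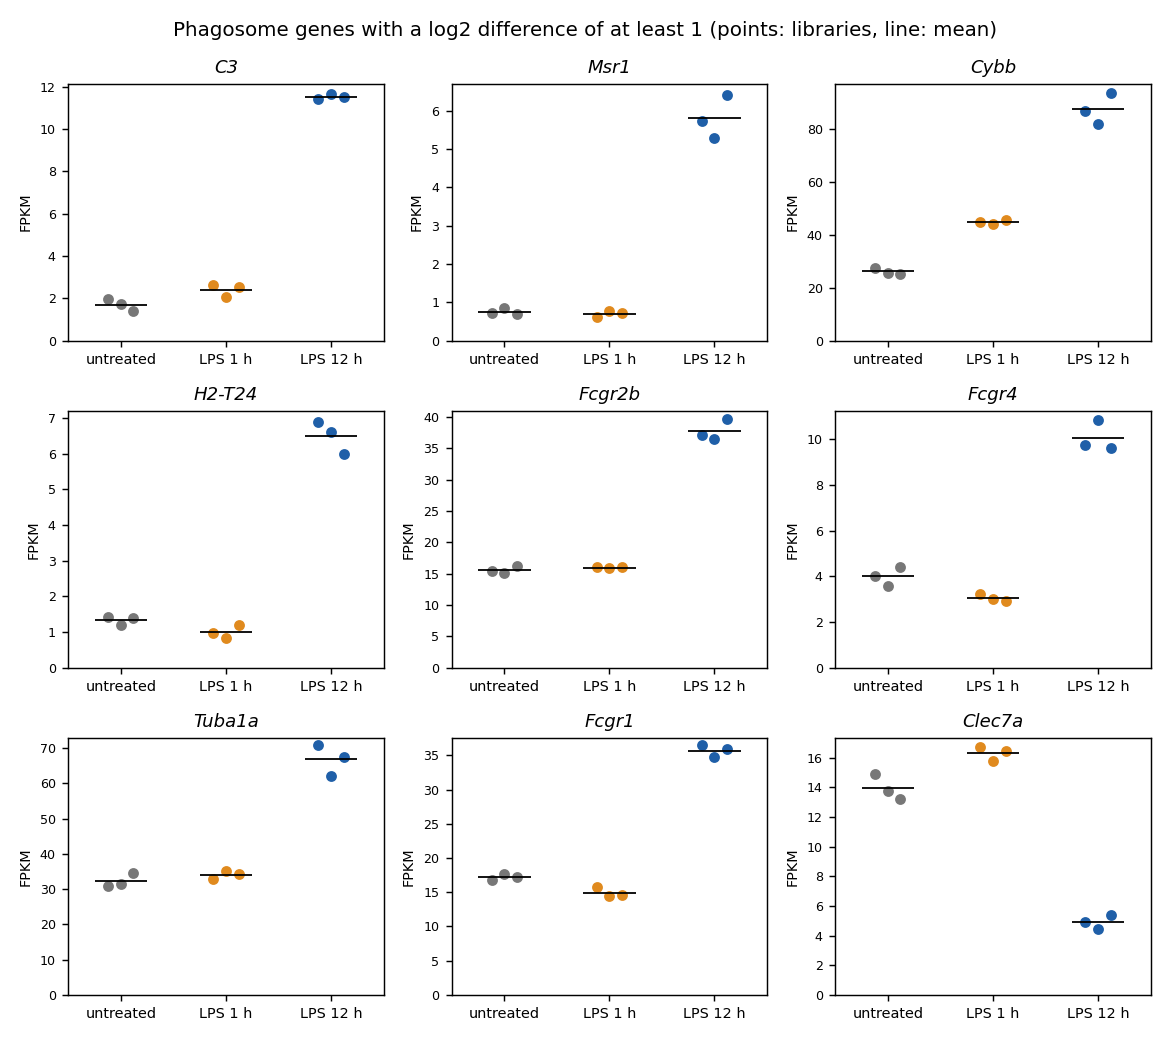
FPKM in each library (points) with the group mean (line) for the 9 members whose log2 difference reached 1 in either direction, on linear axes that start at 0. In 8 of them the 12 h libraries stand above the other 6, and in Clec7a below. The 9 were chosen by that size, so the separation is no further evidence. Msr1, among the 8, is a member only through its 12 h level.

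All 5 NADPH oxidase genes were higher at 12 h, where 41.1% of all tested genes were. They rose by unequal amounts, and quantile normalization ended the call of 2. Cybb, the catalytic subunit gp91phox, had 27.5, 25.6 and 25.2 FPKM in untreated libraries, 44.7, 43.9 and 45.4 at 1 h, and 86.6, 81.9 and 93.5 at 12 h. It stepped up at each time without overlap, by 0.76 ± 0.05 at 1 h and 1.70 ± 0.05 at 12 h (adjusted p = 4.32e-09 and adjusted p = 1.86e-13). Cyba, the p22phox subunit that holds Cybb in the membrane, reached 272.1, 262.6 and 285.0 FPKM at 12 h, against 235.7, 223.6 and 229.4 in untreated libraries, a log2 difference of 0.25 (adjusted p = 3.45e-06). At 1 h Cyba differed by -0.02 (adjusted p = 0.538), which missed the threshold, and the 12 h call was lost under quantile normalization (adjusted p = 0.231).

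The ratio of Cybb to Cyba FPKM was 0.114 ± 0.00362 in untreated cells, 0.198 ± 0.00298 at 1 h and 0.319 ± 0.00826 at 12 h, without overlap (two-sided exact permutation test, p = 0.1 for each pair, the smallest possible). Of the cytosolic subunits, the organizer gene Ncf1 (p47phox) rose at both times, by 0.19 and 0.31 (adjusted p = 6.07e-05 and adjusted p = 1.1e-07). Ncf4 (p40phox), which binds the phagosomal lipid PI3P, was lower at 1 h (-0.14, adjusted p = 0.00748). Ncf4 then stood at 37.3, 38.2 and 39.5 FPKM at 12 h, against 23.4, 22.2 and 22.2 in untreated libraries (0.74, adjusted p = 3.01e-10).

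The promoter of Cybb, the oxidase gene with the largest difference, is shown in the same way (GRCm38.p6: chrX:9469275-9469574, minus strand), with capitals on matches to the interferon motif.
Cybb: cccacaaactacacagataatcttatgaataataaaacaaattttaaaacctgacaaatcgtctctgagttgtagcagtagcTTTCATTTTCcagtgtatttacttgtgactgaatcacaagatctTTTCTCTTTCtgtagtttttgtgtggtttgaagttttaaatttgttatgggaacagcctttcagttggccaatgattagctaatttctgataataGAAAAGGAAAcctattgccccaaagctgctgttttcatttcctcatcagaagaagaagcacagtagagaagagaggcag
The Cybb window held 3 matches, at positions -168, -124 and -29 from the gene start. Of the 57 members, 42 had a promoter in the table, and 7 of these held the interferon motif: Atp6v1d, Cybb, Fcgr4, H2-T22, Hgs, Ncf1 and Tlr6. That is 7 of their 51 promoter windows, or 13.7%, where 3.44% of all promoters held it. CACGTG, the core of the site bound by the lysosomal regulator TFEB, was in 5 windows, 9.8% against 7.15% of all promoters. GAGGAAGT was in 1 window, that of Fcgr4, or 1.96% against 3.2% of all promoters. An NF-κB site motif was in none of the members' windows, and in 0.41% of all promoters.

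The V-ATPase members split. Atp6v1b2, a nucleotide-binding subunit of the V1 part, had 223.2, 207.5 and 205.1 FPKM in untreated libraries, 202.5, 200.8 and 191.0 at 1 h, and 158.6, 161.5 and 160.5 at 12 h. It fell at 12 h by 0.40 ± 0.03 on the log2 scale (adjusted p = 5.23e-08), and the 12 h libraries lay below the other 6. Atp6v1e1, a stalk subunit (0.34, adjusted p = 3.86e-06), and Atp6v0e, of the membrane part (0.33, adjusted p = 6.36e-07), rose at 12 h. Atp6v1d and Atp6v1f, of the central stalk, had differences of 0.11 and 0.08 (adjusted p = 0.0125 and adjusted p = 0.0397), which turned to -0.07 and -0.11 under quantile normalization. The call for Atp6v1d was also lost without untreated library 3 (adjusted p = 0.0783), and that for Atp6v1f without any 1 of untreated libraries 2 and 3, 1 h library 2 or the 12 h libraries (adjusted p = 0.0505 to 0.141). Atp6v1c1 differed by -0.02 at 12 h, short of the threshold (adjusted p = 0.536).

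Together the 6 V-ATPase members summed to 797.7 ± 22.5 FPKM in untreated cells, 777.8 ± 18.4 at 1 h and 813.6 ± 9.5 at 12 h. The sums of the 12 h and the untreated libraries overlapped (two-sided exact permutation test, p = 0.3). Atp6v1b2 made up 26.56 ± 0.498% of that sum in untreated cells, 25.47 ± 0.306% at 1 h and 19.69 ± 0.262% at 12 h. Of 8 further V-ATPase genes that the rule set aside for their Lysosome term, 7 were higher at 12 h and Atp6v0d2 was lower (-1.21). Among all tested genes 41.1% were higher and 40.6% lower at 12 h.

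**Figure D4:**
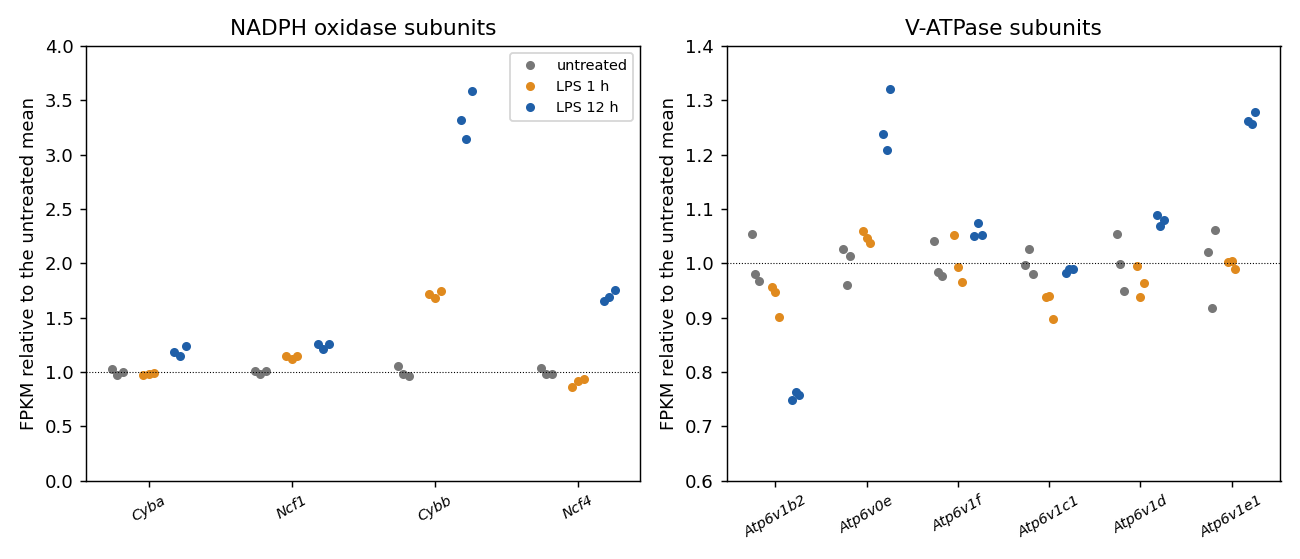
FPKM of each library divided by the untreated mean of the gene, for 4 NADPH oxidase subunits (left) and the V-ATPase subunits (right, on an axis from 0.6 to 1.4). Cybb reached 3.35 times the untreated mean at 12 h and Atp6v1b2 stood at 0.756 times it.

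A group of 13 genes held Rab GTPases, tethers and SNAREs, and also Tfrc, Hgs and the kinase gene Pik3c3. Of these 13, 8 were higher and 3 lower at 12 h, where 41.1% and 40.6% of all tested genes were. At 1 h 3 were higher and 3 lower, or 23.1% each, near the 24.1% and 34.9% of all tested genes. Quantile normalization ended the 12 h call of Rab5c (adjusted p = 0.0879) and the 1 h call of Stx12 (adjusted p = 0.252). Eea1, the tether that docks early endosomes, rose to 17.5, 17.0 and 17.3 FPKM at 12 h, against 9.96, 11.7 and 10.9 in untreated libraries (0.63 ± 0.05, adjusted p = 5.02e-08). Tfrc, the transferrin receptor that cycles through early endosomes, had 117.9, 125.2 and 123.9 FPKM in untreated libraries, 159.4, 150.2 and 152.7 at 1 h, and 175.0, 178.0 and 175.7 at 12 h. It rose by 0.33 and 0.52 (adjusted p = 5.25e-07 and adjusted p = 9.26e-10), with no overlap between the groups. Rab5a, the early endosomal GTPase, rose by 0.22 and 0.28 (adjusted p = 0.00164 and adjusted p = 0.000105). Stx18, a SNARE of the endoplasmic reticulum, rose by 0.34 at 12 h (adjusted p = 5.66e-05).

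Those that fell included Rab7b, a late endosomal GTPase. It had 12.7, 11.8 and 12.3 FPKM in untreated libraries, 7.71, 7.38 and 7.97 at 1 h, and 7.1, 7.55 and 7.46 at 12 h. Both LPS groups lay below the untreated one (-0.61 and -0.66, adjusted p = 4.8e-08 and adjusted p = 5.08e-09) and overlapped each other, with a difference of -0.05 between them (adjusted p = 0.276). Its relative Rab7, which carries phagosomes to the lysosome, had a 12 h difference of 0.16 (adjusted p = 0.000105) that was -0.04 under quantile normalization. Pik3c3, the kinase VPS34 that makes PI3P on phagosomes, fell to 10.01, 10.01 and 9.5 FPKM at 12 h, against 15.7, 16.1 and 15.1 in untreated libraries (-0.62, adjusted p = 2.91e-09). At 1 h the difference of Pik3c3 was -0.14 (adjusted p = 0.00692). Vamp3, a SNARE of recycling endosomes, was lower at 12 h (-0.15, adjusted p = 0.00212).

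All 7 tubulin genes were higher at 12 h in the deposited scale, where 41.1% of all tested genes were. For 2 of them (Tubb5 and Tubb4b) the direction flipped under quantile normalization. At 1 h 1 tubulin gene was higher and 3 were lower, where 24.1% and 34.9% of all tested genes were. Quantile normalization ended both calls of Tuba1c, the gene that was higher at 1 h (adjusted p = 0.298 at 1 h and adjusted p = 0.14 at 12 h). The 3 lower calls at 1 h, of Tuba8, Tubb5 and Tubb6, were each lost under at least 1 alternative. Tuba1a had 31.0, 31.6 and 34.6 FPKM in untreated libraries, 32.8, 35.2 and 34.2 at 1 h, and 70.9, 62.0 and 67.5 at 12 h, so only the 12 h libraries stood apart (1.02 ± 0.05, adjusted p = 1.36e-10). Tubb6 rose to 202.9, 197.8 and 197.4 FPKM at 12 h, against 115.1, 115.5 and 116.4 in untreated libraries (0.78 ± 0.03, adjusted p = 2.87e-12). Tubb5, the member with the highest level, averaged 574 ± 9.88 FPKM at 12 h and 537.8 ± 15.1 in untreated cells. The 12 h differences of Tubb5 and Tubb4b were 0.09 and 0.10, and became -0.03 and -0.10 under that normalization. Tuba8, near the level filter, went below the untreated libraries at 1 h (-0.33, adjusted p = 0.00144) and above them at 12 h (0.42, adjusted p = 8.73e-05). Tubulin genes share long stretches of sequence, so their reads are hard to assign.

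The motor and actin group moved together at 12 h, when all 4 were higher, as were 41.1% of all tested genes. Coro1a, a coronin that binds actin around phagosomes, rose to 179.2, 171.1 and 180.4 FPKM, against 133.9, 126.7 and 134.3 in untreated libraries (0.42 ± 0.03, adjusted p = 1.56e-08). The dynein light intermediate chain gene Dync1li1 rose by 0.38 (adjusted p = 4.53e-08), Dync1li2 by 0.19 (adjusted p = 0.000632) and the intermediate chain gene Dync1i2 by 0.11 (adjusted p = 0.0189). Quantile normalization ended the call for Dync1i2 (adjusted p = 0.348). It also missed the threshold when untreated library 1 or 12 h library 1 or 3 was left out (adjusted p = 0.0599 to 0.0896). At 1 h Coro1a and Dync1li2 were lower, with log2 differences of -0.10 and -0.13. Those 1 h calls were lost for Coro1a without untreated library 1 or 3 or 1 h library 3 (adjusted p = 0.0652 to 0.0772), and for Dync1li2 without untreated library 2 or 1 h library 2 or 3 (adjusted p = 0.05 to 0.0779).

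The 4 genes of the Sec61 channel and the chaperone calreticulin were all higher at 12 h, where 41.1% of all tested genes were. Of the 4, Sec61b flipped under quantile normalization. Calr, the chaperone calreticulin, rose to 462.7, 449.8 and 457.0 FPKM, against 322.2, 299.6 and 315.9 in untreated libraries (0.55 ± 0.03, adjusted p = 2.34e-10). Sec61a1, the pore of the translocation channel, rose by 0.13 at 1 h and 0.45 at 12 h (adjusted p = 0.000721 and adjusted p = 5.89e-10), of which quantile normalization ended the 1 h call (adjusted p = 0.609). The smaller channel subunits had 12 h differences of 0.24 for Sec61g (adjusted p = 0.000339) and 0.13 for Sec61b (adjusted p = 0.00852), and that of Sec61b was -0.07 under quantile normalization, where the call for Sec61g was lost (adjusted p = 0.0554). Without untreated library 2 the call for Sec61b was lost too (adjusted p = 0.0531).

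All 7 genes of the MHC class I group were higher at 12 h, where 41.1% of all tested genes were. At 1 h 3 were higher and 3 lower, where 24.1% and 34.9% of all tested genes were. The 3 lower calls at 1 h, of H2-T22, H2-T24 and Tap2, were each lost when 1 of several libraries was left out. H2-T24, a nonclassical class I gene, had 1.41, 1.19 and 1.39 FPKM in untreated libraries, 0.97, 0.843 and 1.18 at 1 h, and 6.89, 6.59 and 6.0 at 12 h. Its 12 h libraries stood far above the others (1.69 ± 0.07, adjusted p = 3e-11). The classical gene H2-K1 had 42.2, 38.4 and 41.1 FPKM in untreated libraries, 70.9, 73.0 and 70.0 at 1 h, and 67.5, 64.6 and 72.1 at 12 h. Its 1 h libraries overlapped those at 12 h, with log2 differences of 0.80 and 0.73 (adjusted p = 9.35e-10 and adjusted p = 8.19e-10), and 12 h and 1 h differed by -0.07 (adjusted p = 0.15).

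H2-Q4, another nonclassical gene, was highest at 1 h, at 4.57 ± 0.594 FPKM, against 2.34 ± 0.199 in untreated cells (0.73, adjusted p = 1.46e-06), and was lower at 12 h than at 1 h (-0.35, adjusted p = 0.000588). H2-D1, the other classical gene measured, rose by 0.27 and then 0.46 (adjusted p = 2.68e-05 and adjusted p = 3.56e-08). H2-M3, which presents formylated bacterial peptides, rose at 12 h by 0.53 (adjusted p = 6.24e-07). Tap2, one chain of the peptide transporter, had differences of -0.13 at 1 h and 0.13 at 12 h (adjusted p = 0.0455 and adjusted p = 0.0365). The 1 h call for Tap2 was lost under 12 alternatives and the 12 h call under 7, the replicate block among both (adjusted p = 0.0667 and adjusted p = 0.0545). Class I genes are close copies of one another, and reads shared between them are hard to assign.

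Genes outside the rule that act in the same process were counted from lists. Of 10 tested genes of Fc receptor signaling, none was higher and 6 were lower at 1 h, where 24.1% and 34.9% of all tested genes were. At 12 h 7 were higher and 2 lower, where 41.1% and 40.6% of all tested genes were. The kinase genes Syk (0.75) and Lyn (0.74) rose at 12 h, while Inpp5d, the phosphatase SHIP1 that Fcgr2b recruits, fell (-0.66). Fcer1g, the signaling chain shared by the activating receptors, was called higher at 12 h (0.16), but its 12 h and untreated libraries overlapped. Of 11 tested genes for the uptake of dying cells, none was higher and 8 were lower at 1 h, and 2 were higher and 9 lower at 12 h, against the same shares of all tested genes. Mertk (-1.40), a receptor kinase for dying cells, Trem2 (-0.92), a lipid receptor of microglia, and its adaptor Tyrobp (-0.44) fell at 12 h, and Cd300lf, a receptor for phosphatidylserine and ceramide, rose (1.06). Of 10 tested genes of LC3-associated phagocytosis, 2 were higher and 3 lower at 12 h, where 41.1% and 40.6% of all tested genes were. Of the 11 phagosome genes set aside for the term Lysosome 10 were higher at 12 h. Of the 9 tested of those set aside for the actin term 7 were, again against 41.1% of all tested genes.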

How the data were processed

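RNA was sequenced from BV2 cells without LPS and after 1 h or 12 h with it, in 3 libraries a group. Per the labels' protocols, TRIzol was used for RNA and the TruSeq Stranded mRNA kit for libraries. Tools in the submitters' processing notes are Trimmomatic, HISAT2, Cufflinks with HTSeq, and DESeq; neither role nor version is given. They name the human build GRCh38 although the genes carry mouse symbols, so gene positions were not taken from that build. FPKM came as 1 table deposited by the authors. Per the file headers, each gene has in addition its p-value, its q-value, a rank score and a flag score, whose test is not given in the sources used here and which called no gene here. The listed genes had been selected on these samples, so adjusted p-values give no false discovery rate over the transcriptome.

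FPKM was compared as log2(FPKM + 1), a pseudocount of 1, in genes with a mean of at least 1 FPKM (5643 of 6462), in 1 fit over the 9 libraries with limma 3.58.1 in R 4.3.3 (eBayes with trend), with p-values adjusted by Benjamini-Hochberg over all tested genes and a threshold of 0.05. The fit was tested on simulated data. Means, SDs, ratios and figures were made with Python 3.11.15. Genes with a log2 difference of at least 1, the largest of each role and up to 4 per role and comparison were named; a few others were named after their values were seen. The members, roles and lists were chosen with earlier results of these data known. Some genes that enter the counts are not reported here by name. Promoters are those of RefSeq for GRCm38.p6, matched by symbol. In genes below 0.5 FPKM the commonest ratio to untreated library 1 was shared by only 5 to 20 genes a library, too few to scale by.

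Alternatives changed 1 choice at a time: the pseudocount (0.1 or 0.5), the level (none, or a mean of 5 FPKM), the scaling (quantile, or median of ratios), the trend in eBayes (off), the libraries fitted (only the 6 in question, or all but 1), a replicate block, and the number of genes adjusted for (21878, as implied by the ranks).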

Additional observations from a re-analysis of the deposited data

Results flagged for a closer look

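Several members were called in opposite directions at 1 h and at 12 h against untreated cells. Their 12 h and 1 h levels also differed in the same fit (limma), which follows from the opposite calls and is no further evidence. Of the 13 given here, 12 were lower at 1 h and higher at 12 h. Among all tested genes 8.7% were called lower at 1 h and higher at 12 h, and 4.15% the reverse. The log2 difference of 12 h from 1 h was 1.91 for H2-T24, 1.45 for Fcgr4, 1.20 for Fcgr1, 0.88 for Ncf4, 0.85 for Tubb6, 0.74 for Tuba8, 0.66 for H2-T22, 0.58 for Tlr6, 0.52 for Coro1a, 0.32 for Dync1li2, 0.26 for Tap2 and 0.18 for Tubb5. Clec7a went the other way, with -1.55. The 1 h calls of H2-T24, H2-T22, Tap2, Coro1a, Dync1li2, Tuba8, Tubb5 and Tubb6 were each lost under at least 1 alternative. So were the 12 h calls of Tap2, Tlr6 and Tubb5.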

How the results depend on the processing

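The counts of higher and lower phagosome genes stayed within 1.5 times the reported count in all 3 comparisons under every alternative. With 1 library left out, the 1 h comparison had 11 to 13 higher and 15 to 21 lower, the 12 h comparison 42 to 45 higher and 8 lower, and 12 h against 1 h 43 to 44 higher and 8 to 9 lower. Of the called members, 21 of 33 at 1 h, 39 of 53 at 12 h and 45 of 52 between 12 h and 1 h kept their call under every alternative that tested them. Among differences called as reported or under the alternative, only quantile normalization turned a direction. In the 12 h comparison it gave -0.065 for Atp6v1d, -0.106 for Atp6v1f, -0.042 for Rab7, -0.072 for Sec61b, -0.097 for Tubb4b and -0.034 for Tubb5, at 1 h -0.083 for Atp6v1f and -0.089 for Tubb4b, and between 12 h and 1 h -0.005 for Atp6v1c1, -0.023 for Atp6v1f and -0.012 for Tubb5; the cause was not tested. Small differences called in neither fit also changed sign, under quantile normalization, median-of-ratios scaling or without 1 library, such as that of Atp6v1e1 at 1 h (-0.06 without untreated library 2). Same-numbered libraries showed no strong shared effect, as their residuals correlated at -0.067 to 0.128. That cannot show whether the numbers pair the samples. With the replicate block, 12 members were higher and 20 lower at 1 h, 44 and 8 at 12 h, and 44 and 8 between 12 h and 1 h. The depth is unknown, so no limit of detection can be given.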

Other observations

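The 5 phagosome genes below the level were not tested. Mrc1, the mannose receptor, stood at 1.34, 1.27 and 1.04 FPKM in untreated libraries, 1.15, 1.28 and 1.32 at 1 h, and 0.469, 0.395 and 0.374 at 12 h, so the 12 h libraries lay below the other 6. Nos1, a nitric oxide synthase best known from neurons, stood at 0.561, 0.609 and 0.637 FPKM in untreated libraries, 0.431, 0.484 and 0.44 at 1 h, and 0.183, 0.163 and 0.196 at 12 h, with no overlap. Olr1, a receptor for oxidized lipoprotein, was highest at 1 h, at 0.31, 0.378 and 0.544 FPKM, against 0.0677, 0.079 and 0.0155 in untreated libraries. Marco, a scavenger receptor, reached 0.149 to 0.227 FPKM at 12 h and lay at 0 to 0.0341 in untreated libraries, and H2-M2 stayed below 0.21 FPKM throughout.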
